A study of Mus musculus with 4 samples.

Results

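Expression of 10 genes of lipid transport and lipid-associated macrophages was described across myeloid cell classes of mouse brain tumours. The genes were the apolipoprotein genes Apoe, Apoc1, Apoc2 and Apoc4, together with Spp1, Gpnmb, Trem2, Lpl, Fabp5 and Plin2. They were found by their symbols among the 31053 genes of the count tables, and each symbol matched a single gene. Tumour-infiltrating immune cells were collected from C57BL/6 mice at the symptomatic stage and sequenced as 4 single-cell libraries. Brain tumours of a genetically engineered glioma model expressed mutant IDH1 (mIDH1) in 2 libraries or wild-type IDH1 (wtIDH1) in 2 libraries. The enzyme IDH1 acts in the conversion of isocitrate, and its tumour mutants instead produce the metabolite D-2-hydroxyglutarate. The labels give no age, promoter, allele or number of animals behind a library, nor the gate by which immune cells were isolated. Because they do not say that replicates came from separate animals, the p-values below measure only the spread between these libraries.

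Apolipoprotein E is the main lipid carrier made within the brain, where astrocytes and activated microglia secrete it, and the smaller C apolipoproteins modulate how lipoproteins are cleared and hydrolysed. Macrophages that take up myelin or dying cells carry lipid in droplets and lysosomes, and a shared set of genes including Trem2, Gpnmb, Spp1, Lpl and Fabp5 is known from disease-associated microglia of the brain and from lipid-associated macrophages of adipose tissue. TREM2 is a surface receptor for lipids and apolipoproteins, and signals through the adaptor TYROBP.

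After removal of low-quality barcodes and doublets, 3625 and 3490 cells were kept in mIDH1 replicates 1 and 2, and 3043 and 2965 cells in wtIDH1 replicates 1 and 2. Median counts of unique molecular identifiers (UMIs) per cell were 3350 and 2692.5 in the mIDH1 libraries, against 4948 and 4864 in the wtIDH1 libraries. Pairs of libraries shared between 6 and 25 cell barcodes. Cells were clustered without the 10 genes, and clusters were named from marker genes none of which is among the 10. The genes thus did not define the classes directly. The macrophage markers C1qa and C1qb vary together with Apoe, however, so levels are compared between classes without a test. Each cell also had to hold at least 2 UMIs of its own class's markers. This gave 241 and 86 microglia-like cells in the mIDH1 libraries, against 211 and 200 in the wtIDH1 libraries, in clusters with Fcrls among their leading genes. Macrophage-like cells numbered 543 and 357 in the mIDH1 libraries, against 444 and 567 in the wtIDH1 libraries. Monocyte-like cells numbered 231 and 243, against 609 and 283. Dendritic cell-like cells numbered 131 and 85, against 233 and 228. All 12 microglia markers were detected in the microglia-like cells of every library. Levels below are CPM, that is UMIs of a gene per 1000000 UMIs summed over a class in 1 library. Values of the 2 libraries of a genotype are given with replicate 1 before replicate 2.

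The 4 apolipoprotein genes lie side by side on the minus strand of chromosome 7 (mm10, GENCODE M21 positions). Apoe spans chr7:19696109-19699188, Apoc1 chr7:19689481-19692660, Apoc4 chr7:19678083-19681479 and Apoc2 chr7:19671579-19677941. The gap is 3448 bases between Apoe and Apoc1, 8001 bases between Apoc1 and Apoc4, and 141 bases between Apoc4 and Apoc2. The predicted gene Gm44805 overlaps both Apoc2 and Apoc4 on chr7:19671584-19681423 and held 0 UMIs, so counts of those 2 genes are uncertain to the extent that reads in the overlap were discarded. The other genes lie on separate chromosomes, with Spp1 at chr5:104435118-104441050, Gpnmb at chr6:49036546-49070929, Trem2 at chr17:48346401-48354147, Lpl at chr8:68880491-68907448, Fabp5 at chr3:10012548-10016607 and Plin2 at chr4:86648386-86670060.

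RefSeq start sites on GRCm38.p6 (mm10) were found for 7 of the 10 genes. The 250 bases before the start are printed for Apoe and Apoc4, neighbours that were both higher in mIDH1 microglia-like cells, for Spp1, which was higher there from another chromosome, and for Gpnmb, which was lower in mIDH1 monocyte-like cells. Apoe is read from chr7:19699189-19699438 and Apoc4 from chr7:19681461-19681710, both on the minus strand. Spp1 is read from chr5:104434861-104435110 and Gpnmb from chr6:49036268-49036517, both on the plus strand. Capitals mark matches on either strand to 6 motifs, namely the E-box core CACGTG, the AP-1 motif TGANTCA, the TATA box letters TATAAA, the ETS-type motif GAGGAA and the direct repeats of nuclear receptors, in which the letters AGGTCA stand in tandem with any 1 base (DR1) or any 4 bases (DR4) between them.
Apoe: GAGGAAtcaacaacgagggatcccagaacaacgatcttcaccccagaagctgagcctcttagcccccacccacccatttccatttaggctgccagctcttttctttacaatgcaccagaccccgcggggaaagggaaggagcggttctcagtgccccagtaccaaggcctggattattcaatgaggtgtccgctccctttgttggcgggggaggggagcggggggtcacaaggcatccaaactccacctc
Apoc4: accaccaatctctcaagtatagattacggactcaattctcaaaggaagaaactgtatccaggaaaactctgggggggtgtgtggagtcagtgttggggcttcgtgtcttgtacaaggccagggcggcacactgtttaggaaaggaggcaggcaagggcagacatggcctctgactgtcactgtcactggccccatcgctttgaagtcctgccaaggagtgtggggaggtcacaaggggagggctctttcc
Spp1: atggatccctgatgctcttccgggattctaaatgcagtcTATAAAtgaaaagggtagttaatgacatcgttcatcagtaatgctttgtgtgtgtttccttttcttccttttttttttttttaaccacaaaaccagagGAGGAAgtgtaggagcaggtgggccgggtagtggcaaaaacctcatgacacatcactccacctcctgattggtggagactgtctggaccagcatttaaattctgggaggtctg
Gpnmb: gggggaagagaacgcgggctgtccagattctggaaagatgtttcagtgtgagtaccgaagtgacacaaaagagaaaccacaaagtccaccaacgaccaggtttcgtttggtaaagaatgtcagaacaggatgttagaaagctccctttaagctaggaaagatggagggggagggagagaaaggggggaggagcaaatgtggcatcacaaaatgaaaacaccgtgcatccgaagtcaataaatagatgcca
The Apoe window held GAGGAA, and the Spp1 window held TATAAA and GAGGAA, whereas Apoc4 and Gpnmb had no match. No match overlapped another. Of 32851 windows of the same length, 23.3% held GAGGAA, 12.4% TATAAA, 6.75% TGANTCA and 6.02% CACGTG. The DR1 repeat was held by 0.0335% and the DR4 repeat by 0.0152%. These are letter matches in a fixed window and show no binding.

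Across cell classes, Apoe, Apoc1, Apoc4, Trem2 and Lpl averaged highest in microglia-like cells, while Spp1, Gpnmb, Fabp5, Plin2 and Apoc2 averaged highest in macrophage-like cells. Apoe averaged 20995 CPM over the 4 libraries in microglia-like cells, 12014 in macrophage-like cells, 2714 in monocyte-like cells and 117 in dendritic cell-like cells. The microglia-like level was above the macrophage-like level in both mIDH1 libraries and below it in both wtIDH1 libraries, whereas both other steps were larger than the spread over libraries. Apoc1 averaged 212 CPM in microglia-like cells and 15.4 CPM in macrophage-like cells, a 13.7-fold step with no overlap, while its level of 14.9 CPM in monocyte-like cells overlapped that of macrophage-like cells. Apoc4 averaged 59.6 CPM in microglia-like, 10.4 in macrophage-like and 0.675 in monocyte-like cells, and Apoc2 2.64, 7.63 and 4.03 CPM in the same order, each with overlapping neighbours apart from the lower Apoc4 step. Trem2 was ordered in separate steps, at 755 CPM in microglia-like, 282 in macrophage-like, 73.9 in monocyte-like and 6.17 in dendritic cell-like cells, with no overlap between neighbours. Gpnmb, a lysosomal and membrane glycoprotein of macrophages, also had no overlap between neighbours, with 433 CPM in macrophage-like, 123 in microglia-like, 30.2 in monocyte-like and 1.69 in dendritic cell-like cells. Its monocyte-like levels ran from 3.94 to 86.5 CPM. T cell-like cells, read below as background, averaged 5.78 CPM for Trem2 and 5.56 CPM for Gpnmb. The dendritic cell-like levels of both genes and the mIDH1 monocyte-like Gpnmb levels are therefore not told from background.

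The remaining genes were less sharply ordered. Spp1, which encodes the secreted matrix protein osteopontin, averaged 2964 CPM in macrophage-like and 1434 CPM in microglia-like cells. It was higher in macrophage-like cells within each of the 4 libraries, although the ranges over libraries overlapped. Spp1 averaged 252 CPM in monocyte-like and 47.6 CPM in dendritic cell-like cells. Fabp5, a cytosolic fatty acid binding protein, averaged 1104 CPM in macrophage-like cells, above 501 CPM in dendritic cell-like, 431 in microglia-like and 243 in monocyte-like cells, and the last 3 overlapped. Plin2, which coats lipid droplets, averaged 586 CPM in macrophage-like, 240 in monocyte-like, 191 in microglia-like and 82.8 in dendritic cell-like cells. Lpl, the secreted lipase that frees fatty acids from lipoproteins, averaged 125 CPM in microglia-like, 59.0 in macrophage-like, 17.3 in monocyte-like and 7.23 in dendritic cell-like cells, and every neighbouring pair overlapped. Over the 10 genes, 16 of 30 neighbouring pairs of classes did not overlap. The classes were ordered by each gene's own mean before this count, and the share over all genes was not computed. The count is therefore no result about these 10 genes.

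**Figure D1:**
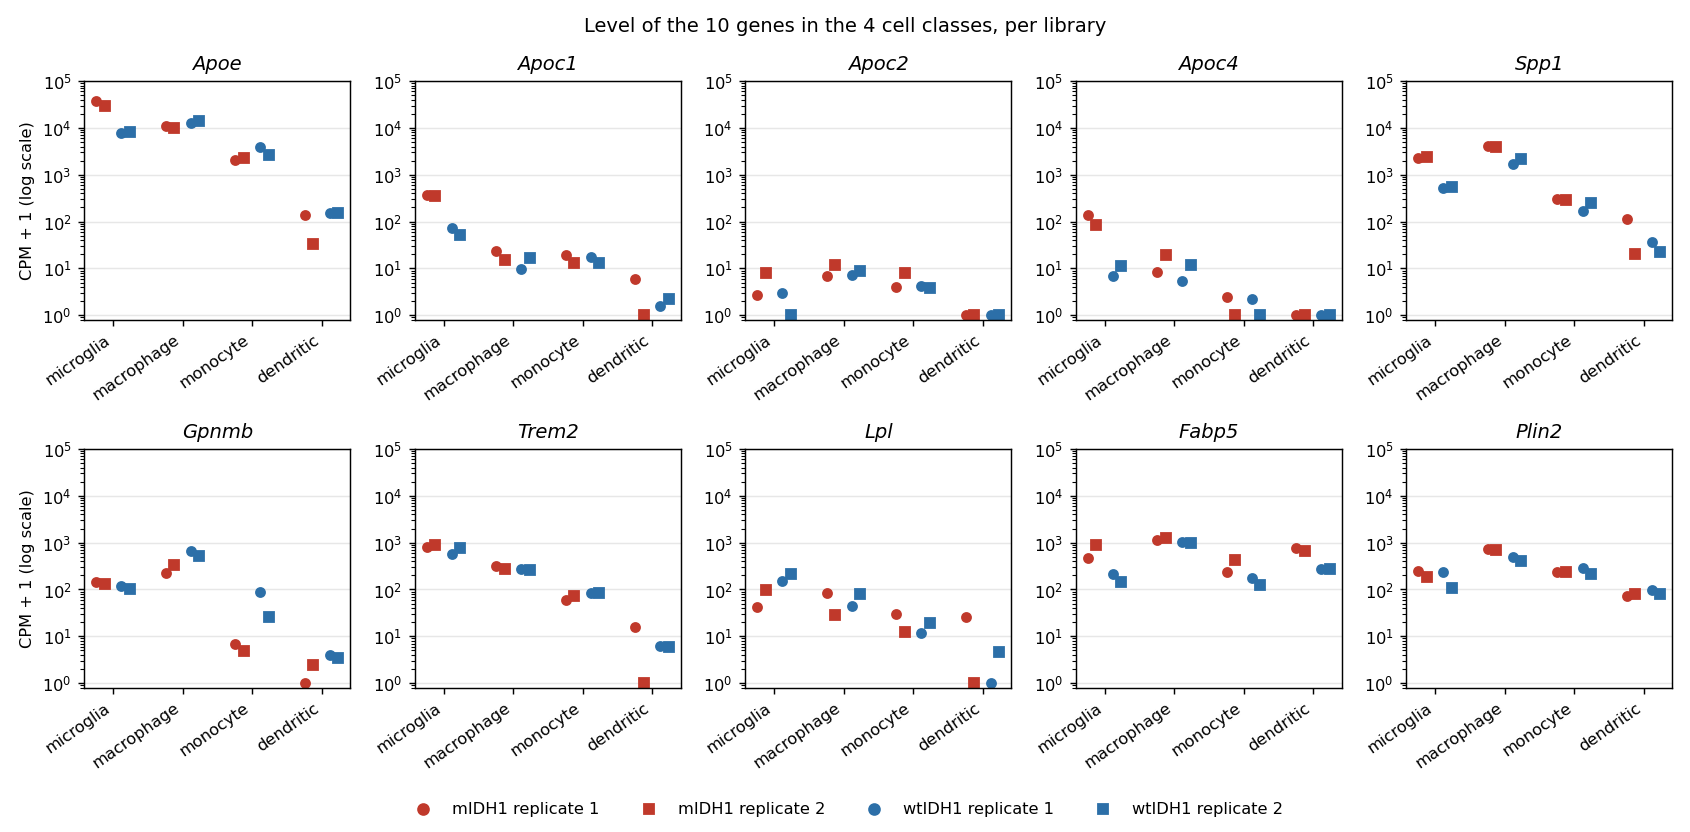
Level of the 10 genes (CPM of summed UMIs, log scale) in microglia-like, macrophage-like, monocyte-like and dendritic cell-like cells, with 1 point per library and mIDH1 left of wtIDH1. Apoe and Apoc1 separate the genotypes in microglia-like cells, and Trem2 and Gpnmb show no overlap between neighbouring classes. The dendritic cell-like levels of Trem2 and Gpnmb, and monocyte-like Gpnmb in mIDH1, are not told from background.

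Free RNA can add to these levels, and T cell-like cells were used to estimate it. In T cell-like cells, which should express none of the genes strongly, Apoe was at 145 and 940 CPM in the mIDH1 libraries, against 100.04 and 135 CPM in the wtIDH1 libraries. The dendritic cell-like Apoe levels were 136 and 32.3 CPM in the mIDH1 libraries, against 149 and 151 CPM in the wtIDH1 libraries. Outside mIDH1 replicate 2 they lay near the T cell-like levels. In mIDH1 replicate 2 the T cell-like mean per cell gave 552 UMIs for the dendritic cell-like cells, where 23 were counted. The T cell-like Apoe level of that library is therefore not a floor of free RNA. The dendritic cell-like Apoe levels are still read as background. The dendritic cell-like Spp1 levels of 113 and 19.7 CPM, against 36.0 and 21.9 CPM, lay near or below the T cell-like levels of 114 and 82.0 CPM, against 27.9 and 46.4 CPM, in the same order of libraries. Apoc2 and Apoc4 had 0 UMIs in dendritic cell-like cells of all 4 libraries, which allows levels up to 4.21 CPM in the smallest and 1.74 CPM in the largest of these sums. When each cell was thinned to 1000 UMIs, 8.39% and 5.41% of T cell-like cells in the mIDH1 libraries, against 11.5% and 13.98% in the wtIDH1 libraries, held an Apoe UMI. The same shares in microglia-like cells were 99.4% and 100% in the mIDH1 libraries, against 93.0% and 88.1% in the wtIDH1 libraries. Unthinned, 99.6% and 98.8% of mIDH1 and 93.8% and 95.5% of wtIDH1 microglia-like cells held one. Median depths were 2034 and 1508 UMIs in mIDH1 and 1319 and 2340 UMIs in wtIDH1 microglia-like cells, against 6112.5 and 5341.5 in mIDH1 and 4211 and 4075 in wtIDH1 T cell-like cells.

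In microglia-like cells, 5 of the 9 genes that could be tested rose in mIDH1 over wtIDH1 tumours and none fell. They were Apoe, Apoc1, Apoc4, Spp1 and Fabp5. Summed counts were tested with the quasi-likelihood test of edgeR at an adjusted p of 0.05, and log2 fold changes are mIDH1 over wtIDH1. Of all 7135 genes tested in this class, 3.13% passed in either direction, 193 higher and 30 lower in mIDH1. With scaling by library totals alone these were 128 and 51, and the median of all genes in the 4 classes moved to between -0.22 and -0.33 on the log2 scale. The same 5 genes passed under that scaling, and Lpl then fell as well (log2 fold change -1.54, adjusted p = 0.0307). With 2 libraries against 2, an exact permutation test of a single value cannot go below 0.33, so calls rest on the model fitted over all genes.

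Apoe was at 38154 and 29791 CPM in mIDH1 microglia-like cells, against 7821 and 8213 CPM in wtIDH1 microglia-like cells. Both mIDH1 libraries lay above both wtIDH1 libraries, and the log2 fold change was 2.30 (SE 0.37, edgeR adjusted p = 0.000153). Without wtIDH1 replicate 1 the size was alike at 2.33 but the adjusted p was 0.0847. Apoc1 was at 377 and 348 CPM in mIDH1, against 70.7 and 51.3 CPM in wtIDH1, a log2 fold change of 2.81 (SE 0.39, edgeR adjusted p = 1.87e-05). These UMIs lay in few cells, with 66.6% and 92.2% of them in 10 cells in mIDH1, against 97.1% and 84.4% in wtIDH1. The ratio of the 2 neighbours differed by less than either level, at 0.987 and 1.17 Apoc1 UMIs per 100 Apoe UMIs in mIDH1, against 0.903 and 0.625 in wtIDH1 microglia-like cells. In macrophage-like cells that ratio was 0.201 and 0.147 in mIDH1, against 0.0694 and 0.111 in wtIDH1, so every microglia-like library lay above every macrophage-like library.

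Apoc4 was at 140 and 82.0 CPM in mIDH1 microglia-like cells, against 6.1 and 10.3 CPM in wtIDH1 microglia-like cells. These levels rested on 166 and 24 UMIs in mIDH1, against 3 and 9 UMIs in wtIDH1, and the log2 fold change was 3.92 (SE 0.47, edgeR adjusted p = 1.71e-06). After thinning to 1000 UMIs a cell, Apoc4 had too few UMIs to be tested. Apoc2, the cofactor that activates lipoprotein lipase, had 2 and 2 UMIs in mIDH1, against 1 and 0 UMIs in wtIDH1, too few to test. The rise was therefore read in 3 genes of the chromosome 7 group, with the last of the 4 near the limit of detection.

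Spp1 was at 2329 and 2344 CPM in mIDH1 microglia-like cells, against 525 and 538 CPM in wtIDH1 microglia-like cells. The groups were far apart relative to the spread within each, with a log2 fold change of 2.37 (SE 0.39, edgeR adjusted p = 0.000228). Fabp5 was at 460 and 902 CPM in mIDH1, against 216 and 145 CPM in wtIDH1, a log2 fold change of 2.17 (SE 0.43, edgeR adjusted p = 0.00227). The Fabp5 groups did not overlap, but Fabp5 no longer passed when mIDH1 replicate 2 (1.47, adjusted p = 0.0716) or wtIDH1 replicate 2 (1.86, adjusted p = 0.0753) was left out, nor in cells thinned to 1000 UMIs (1.23, adjusted p = 0.195) or chosen by the marker gate alone (0.91, adjusted p = 0.405).

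The receptor Trem2 was at 804 and 885 CPM in mIDH1 microglia-like cells, against 575 and 754 CPM in wtIDH1 microglia-like cells, and did not pass (log2 fold change 0.58, edgeR adjusted p = 0.533). Gpnmb was at 144 and 130 CPM in mIDH1, against 117 and 103 CPM in wtIDH1 (0.54, adjusted p = 0.550). Plin2 was at 247 and 181 CPM in mIDH1, against 230 and 107 CPM in wtIDH1, with overlapping groups (0.58, adjusted p = 0.562). Lpl ran the other way, at 42.2 and 95.7 CPM in mIDH1, against 153 and 209 CPM in wtIDH1. The Lpl groups did not overlap, but the log2 fold change of -1.31 did not pass (adjusted p = 0.0885), whereas it passed with scaling by library totals.

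Reads of neutrophil genes moved with the genotype in these cells. The summed level of 12 neutrophil markers was 6332 and 7547 CPM in mIDH1 microglia-like cells, against 297 and 634 CPM in wtIDH1 microglia-like cells. Ly6g, Ngp and Camp were at 0 in mIDH1 replicate 2 and in both wtIDH1 libraries, and none of the 12 was at 0 in mIDH1 replicate 1. Neutrophil-like cells themselves held Apoe at 1516 and 266 CPM in mIDH1, against 1252 and 1270 CPM in wtIDH1, below the microglia-like levels. Apoc1 averaged 12.2 CPM there in mIDH1 and 2.87 in wtIDH1, and Apoc4 4.67 and 4.23 CPM. Neutrophil-like Spp1 averaged 975 CPM in mIDH1 and 809 in wtIDH1, between the wtIDH1 and mIDH1 microglia-like levels. Neutrophil-like Fabp5 averaged 255 and 165 CPM, beside microglia-like means of 681 and 180 CPM. After cells with more than 0.1% of their UMIs in neutrophil markers were left out, 173 and 49 mIDH1 and 193 and 180 wtIDH1 microglia-like cells remained. In these the log2 fold changes were 2.30 for Apoe (edgeR adjusted p = 0.000831), 2.05 for Apoc1 (0.0354), 4.16 for Apoc4 and 2.44 for Spp1 (0.00409), while Fabp5 at 1.82 no longer passed (0.0766). Summed microglia markers were 6678 and 6044 CPM in mIDH1, against 9056 and 13470 CPM in wtIDH1, and monocyte markers 1737 and 1814 CPM, against 650.1 and 502 CPM. The part of this shift in the result was not tested. Astrocyte markers, of a cell type that makes much Apoe, were at 93.8 and 58.1 CPM in mIDH1, against 113 and 159 CPM in wtIDH1, and 3 to 5 of these 8 markers, Gjb6 among them, were at 0 in each library.

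The microglia-like class held 2 clusters, numbered 7 and 11, with medians of 1150 and 8293 UMIs per cell. Cluster 7 alone had 172 and 77 mIDH1 cells, against 197 and 123 wtIDH1 cells, and the same 5 genes passed there. Apoe in cluster 7 was at 28807 and 22148 CPM in mIDH1, against 7418 and 9529 CPM in wtIDH1, and Spp1 at 3143 and 2556 CPM in mIDH1, against 649 and 835 CPM in wtIDH1. The log2 fold changes were 1.76 for Apoe, 1.78 for Apoc1, 3.43 for Apoc4, 2.12 for Spp1 and 1.32 for Fabp5. Cluster 11 had too few cells to fit in 2 libraries, with 69 and 9 mIDH1 cells, against 14 and 77 wtIDH1 cells. Its Apoe levels were 43551 and 39258 CPM in mIDH1, against 8776 and 7746 CPM in wtIDH1, so the genotypes were apart in both clusters.

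The shift in Apoe was seen across the distribution of microglia-like cells. The median microglia-like cell held 282 and 158 Apoe UMIs per 10000 in the mIDH1 libraries, against 54.8 and 64.4 in the wtIDH1 libraries. The 25th percentile of the mIDH1 cells, 137 and 74.8, lay above the wtIDH1 medians. For Spp1, 54.3% and 51.6% of mIDH1 microglia-like cells thinned to 1000 UMIs held a UMI, against 19.6% and 21.9% of wtIDH1 cells, with 64.3% and 57.0% of mIDH1 and 24.6% and 33.5% of wtIDH1 cells before thinning. The 10 cells richest in Apoe held 26.2% and 65.5% of its mIDH1 microglia-like UMIs, against 38.1% and 36.5% in wtIDH1.

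**Figure D2:**
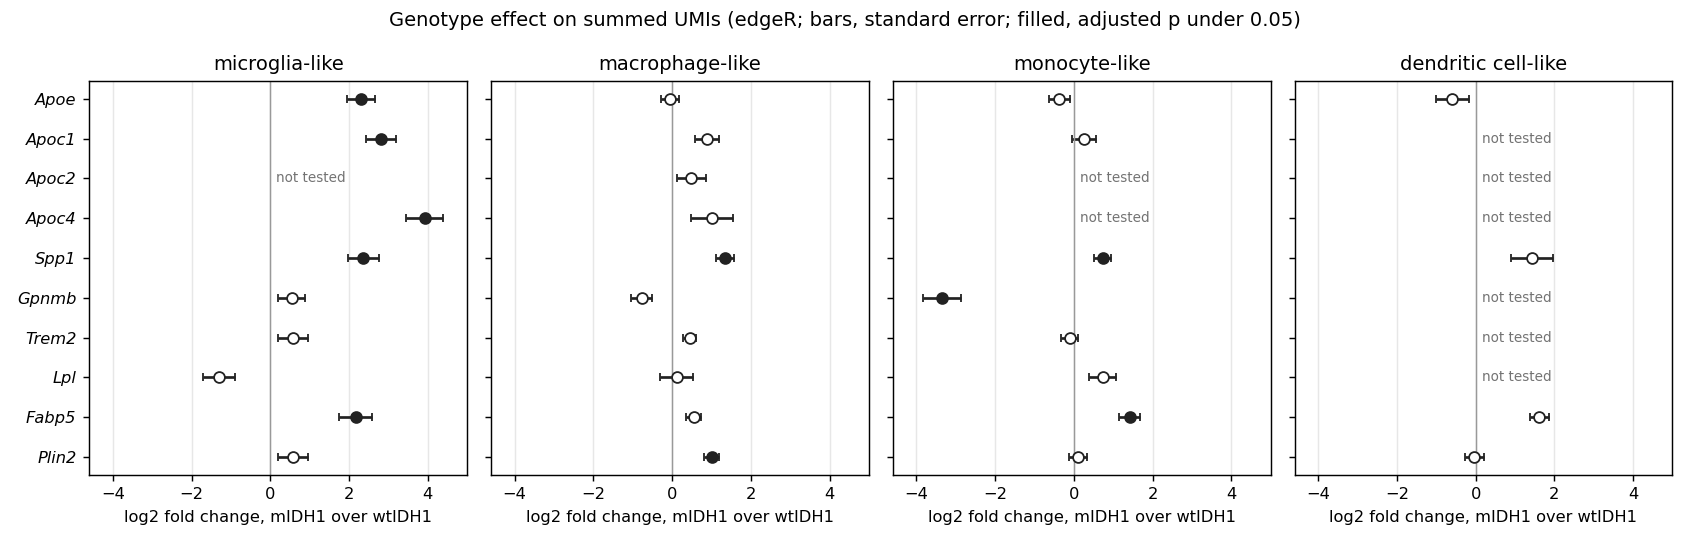
Log2 fold change of mIDH1 over wtIDH1 (points, with bars of 1 standard error) for each tested gene in each of the 4 classes. Apoe, Apoc1, Apoc4, Spp1 and Fabp5 lie above 0 in microglia-like cells, Spp1 and Plin2 in macrophage-like cells, and Gpnmb lies at -3.35 in monocyte-like cells.

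In macrophage-like cells, 2 of the 10 genes rose in mIDH1, Spp1 and Plin2, and none fell. The background was higher here, since 9.76% of 10764 genes passed, 798 higher and 253 lower in mIDH1 (431 and 986 with scaling by library totals, where both genes still passed and Gpnmb fell at -1.09, adjusted p = 0.0314). Spp1 was at 4077 and 3891 CPM in mIDH1 macrophage-like cells, against 1696 and 2191 CPM in wtIDH1 macrophage-like cells, a log2 fold change of 1.34 (SE 0.22, edgeR adjusted p = 0.0138). Plin2 was at 740 and 712 CPM in mIDH1, against 483 and 411 CPM in wtIDH1, a log2 fold change of 1.004 (SE 0.19, edgeR adjusted p = 0.0195). Neither gene's groups overlapped. Spp1 no longer passed without wtIDH1 replicate 1 (1.19, adjusted p = 0.06003), nor Plin2 without mIDH1 replicate 2 (0.95, adjusted p = 0.0514), without wtIDH1 replicate 2 (0.87, adjusted p = 0.166) or by the marker gate alone (0.70, adjusted p = 0.0870).

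Apoe did not pass in this class, at 11207 and 9809 CPM in mIDH1 macrophage-like cells, against 12832 and 14208 CPM in wtIDH1 macrophage-like cells (log2 fold change -0.06, edgeR adjusted p = 0.881). Gpnmb was at 225 and 327 CPM in mIDH1, against 672 and 507 CPM in wtIDH1, and its groups did not overlap. Its log2 fold change of -0.78 did not pass (adjusted p = 0.101), although it passed under DESeq2 (-0.75, adjusted p = 0.0473) and without the filter on low counts (-0.79, adjusted p = 0.00155). The sign of the Gpnmb change was not the same within each cluster of this class, as described below. Trem2 was at 322 and 271 CPM in mIDH1, against 279 and 257 CPM in wtIDH1, with overlapping groups (0.45, adjusted p = 0.119). Fabp5 was at 1162 and 1235 CPM in mIDH1, against 1037 and 983 CPM in wtIDH1 (0.56, adjusted p = 0.104). The fitted changes lie above the ratios of the CPM values, since the CPM values carry the scaling by totals named above. Apoc1, Apoc2, Apoc4 and Lpl stayed under 90 CPM in every library and did not pass either, with adjusted p between 0.0932 and 0.869.

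Medians over single cells lay apart between the genotypes where the Apoe sums did not pass. The median macrophage-like cell held 30.8 and 12.1 Apoe UMIs per 10000 in mIDH1, against 81.0 and 98.2 in wtIDH1. At the 90th percentile the values were closer, at 240.0 and 187 in mIDH1, against 281 and 280.3 in wtIDH1. The 10 richest cells held 18.4% and 41.8% of the mIDH1 Apoe UMIs, against 15.98% and 12.5% of the wtIDH1 Apoe UMIs. For Spp1 the medians were 12.7 and 11.1 UMIs per 10000 in mIDH1, against 2.44 and 3.94 in wtIDH1, in the same direction as the sums.

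**Figure D3:**
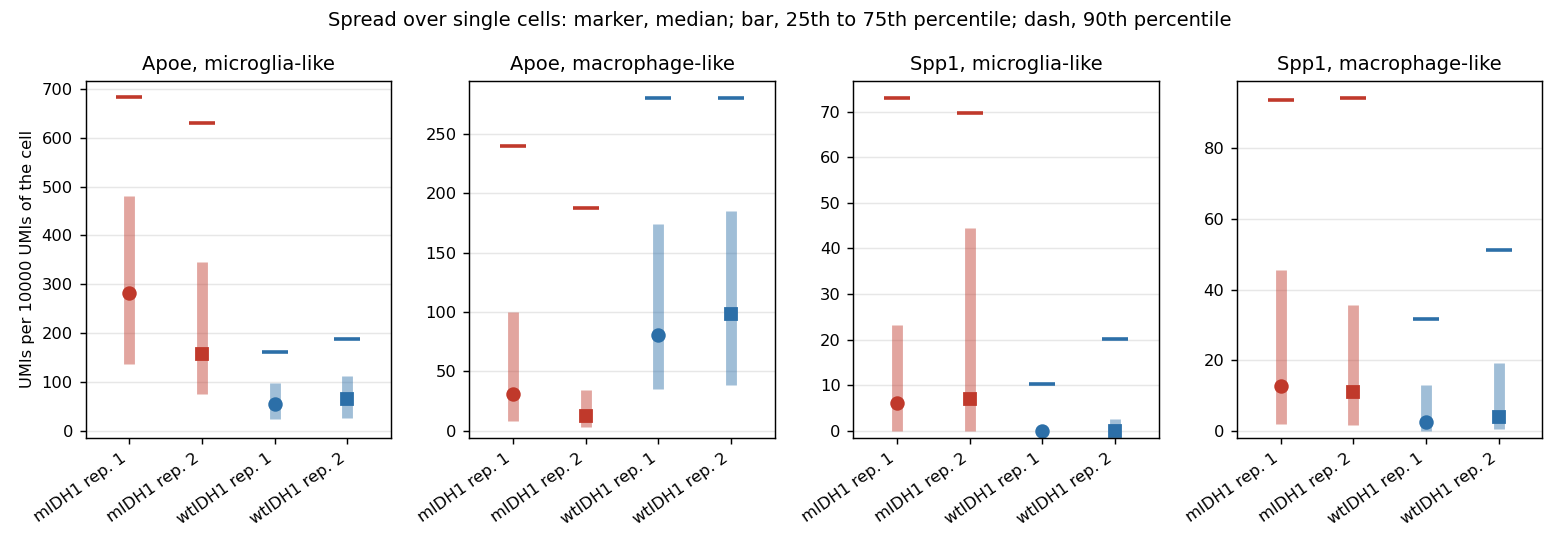
Apoe and Spp1 UMIs per 10000 UMIs of a cell in microglia-like and macrophage-like cells of each library, mIDH1 left of wtIDH1, with the median (marker), the 25th to 75th percentile (bar) and the 90th percentile (dash). Apoe medians are higher in mIDH1 microglia-like cells (282 and 158, against 54.8 and 64.4) and lower in mIDH1 macrophage-like cells (30.8 and 12.1, against 81.0 and 98.2).

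The macrophage-like class was made of different clusters in the 2 genotypes. Cluster 2, led by Ccl7, Pf4, Ccl24, Mmp12, Arg1 and Mrc1, held 423 and 311 of the mIDH1 cells, against 76 and 78 of the wtIDH1 cells. Cluster 4, led by Ms4a7, Adamdec1, Creg1, Hmox1 and Mertk, held 120 and 46 of the mIDH1 cells, against 368 and 489 of the wtIDH1 cells. Averaged over libraries, Apoe was 5.79 times, Gpnmb 5.23 times and Trem2 2.22 times as high in cluster 4 as in cluster 2, and Apoc1, Apoc2 and Apoc4 were also higher there in 4 of 4 libraries. Spp1 was 0.572 times and Plin2 0.486 times as high in cluster 4 as in cluster 2, lower there in 4 of 4 libraries. Cluster 2 had as many monocyte as macrophage markers, 3 of each, among its 60 leading genes. These ratios describe clusters drawn from the same cells and carry no test.

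Within cluster 4, Apoe was at 24794 and 42436 CPM in mIDH1, against 14268 and 15366 CPM in wtIDH1, and within cluster 2 at 6379 and 2464 CPM in mIDH1, against 3708 and 4173 CPM in wtIDH1. Neither difference passed (log2 fold change 1.47, edgeR adjusted p = 0.0755 in cluster 4, and 0.31, adjusted p = 0.685 in cluster 2), but both were positive while the class as a whole gave -0.06. Apoc1 rose within cluster 4, at 56.5 and 46.8 CPM in mIDH1, against 9.4 and 17.7 CPM in wtIDH1 (2.19, edgeR adjusted p = 0.00491). Trem2 rose there too, at 473 and 731 CPM in mIDH1, against 292 and 268 CPM in wtIDH1 (1.38, edgeR adjusted p = 0.0252). Gpnmb passed in neither cluster, and its fitted change within cluster 4 was positive, opposite in sign to that of the whole class.

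The Spp1 and Plin2 calls did not hold within either cluster. Spp1 in cluster 2 was at 4999 and 3978 CPM in mIDH1, against 2792 and 3224 CPM in wtIDH1 (0.75, edgeR adjusted p = 0.119), and in cluster 4 at 1483 and 3504 CPM in mIDH1, against 1524 and 2072 CPM in wtIDH1 (0.77, adjusted p = 0.309). Plin2 in cluster 2 was at 865 and 806 CPM in mIDH1, against 788 and 633 CPM in wtIDH1 (0.40, adjusted p = 0.373), and in cluster 4 at 387 and 295 CPM in mIDH1, against 435 and 385 CPM in wtIDH1 (-0.0026, adjusted p = 0.998). Fabp5 rose within cluster 2, at 1163 and 946 CPM in mIDH1, against 488 and 586 CPM in wtIDH1 (1.14, edgeR adjusted p = 0.0473). Neutrophil markers summed to 1550 and 3452 CPM in mIDH1 macrophage-like cells, against 896 and 769 CPM in wtIDH1, and monocyte markers to 5864 and 10640 CPM, against 3847 and 2501 CPM. With the cells above 0.1% neutrophil UMIs left out, both Spp1 and Plin2 still passed.

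**Figure D4:**
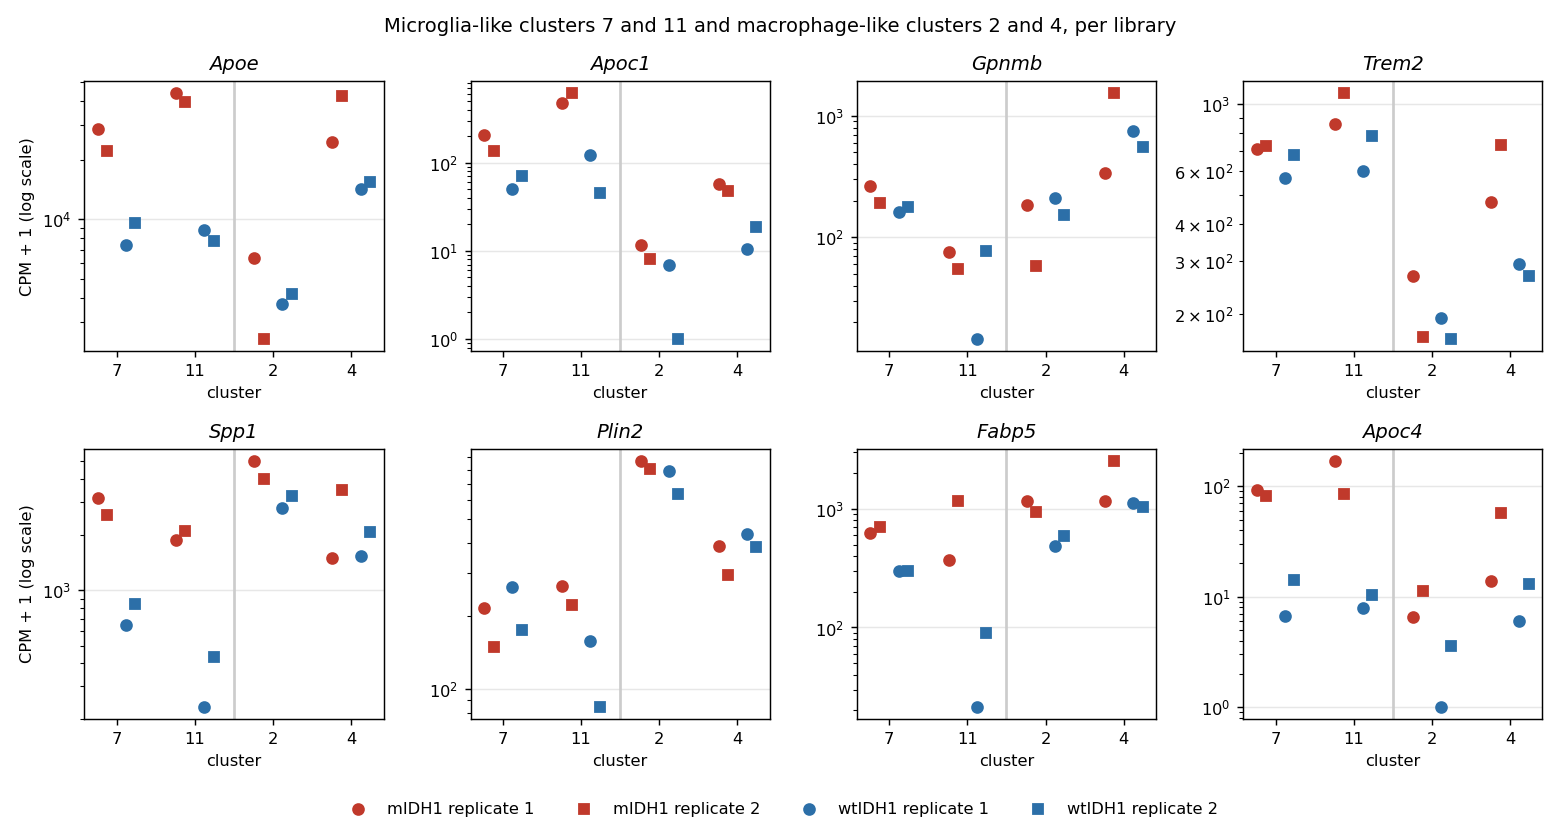
Levels (CPM, log scale) in microglia-like clusters 7 and 11 and macrophage-like clusters 2 and 4, by library, mIDH1 left of wtIDH1. The genes shown are Apoe, Apoc1, Gpnmb, Trem2, Spp1, Plin2, Fabp5 and Apoc4. In the macrophage-like class Apoe, Gpnmb and Trem2 are higher in cluster 4 and Spp1 and Plin2 are higher in cluster 2 within every library.

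In monocyte-like cells, Gpnmb fell in mIDH1 while Fabp5 and Spp1 rose, 3 of 8 genes tested, beside a background of 15% of 8800 genes, 798 higher and 518 lower in mIDH1 (497 and 1319 with scaling by library totals). Gpnmb was at 6.0 and 3.9 CPM in mIDH1 monocyte-like cells, against 86.5 and 24.3 CPM in wtIDH1 monocyte-like cells, a log2 fold change of -3.35 (SE 0.48, edgeR adjusted p = 0.000109). The level rested on few cells, since 8 and 4 mIDH1 cells and 67 and 12 wtIDH1 cells held a Gpnmb UMI. In wtIDH1, 77.4% and 96.1% of its UMIs came from 10 cells. Summed macrophage markers were 2265 and 2018 CPM in mIDH1, against 3464 and 2834 CPM in wtIDH1 monocyte-like cells, and their part in the difference was not tested. After thinning to 1000 UMIs, 1.75% and 0.826% of mIDH1 cells, against 2.31% and 0.707% of wtIDH1 cells, held a Gpnmb UMI, shares that overlapped, with 3.46% and 1.65% of mIDH1 and 11.002% and 4.24% of wtIDH1 cells before thinning. In T cell-like cells the thinned shares lay between 0% and 0.256%, but the Gpnmb level there was 1.79 and 15.5 CPM in mIDH1, against 3.24 and 1.70 CPM in wtIDH1. The free RNA estimated from T cell-like cells made up 2.45% and 5.32% of the Gpnmb UMIs of wtIDH1 monocyte-like cells. In mIDH1 replicate 1 it made up 28.2% of 12 UMIs. For mIDH1 replicate 2 the estimate of 26.0 UMIs exceeded the 9 counted, so it cannot place that level against free RNA. The mIDH1 levels rest on so few UMIs that their distance from free RNA is uncertain. The thinned sums held too few Gpnmb UMIs to be tested. Without wtIDH1 replicate 1 the log2 fold change was -2.03 (adjusted p = 0.00241), and with cells chosen by the marker gate alone it was -1.37 and did not pass (adjusted p = 0.154).

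Fabp5 was at 240.4 and 433 CPM in mIDH1 monocyte-like cells, against 173 and 124 CPM in wtIDH1 monocyte-like cells, a log2 fold change of 1.42 (SE 0.27, edgeR adjusted p = 0.00131), and passed in each fit that left out 1 library. It missed the threshold under DESeq2 (adjusted p = 0.0820) and with cells chosen by the marker gate alone (0.0546). Spp1 was at 307 and 283 CPM in mIDH1, against 170 and 248 CPM in wtIDH1, a log2 fold change of 0.74 (SE 0.22, edgeR adjusted p = 0.0263). Spp1 no longer passed when wtIDH1 replicate 1 (adjusted p = 0.475) or replicate 2 (0.0559) was left out, nor after cells with neutrophil UMIs were left out (log2 fold change 0.33, adjusted p = 0.441). Nor did it pass with scaling by library totals (0.50, adjusted p = 0.107), with doublets kept, after subtraction of free RNA, in thinned cells or in cluster 1 alone. Neutrophil markers summed to 2533 and 3610 CPM in mIDH1, against 1276 and 883 CPM in wtIDH1 monocyte-like cells. Apoe was at 2049 and 2284 CPM in mIDH1, against 3891 and 2632 CPM in wtIDH1, groups that did not overlap, and did not pass (-0.36, adjusted p = 0.407). Apoc1, Trem2, Lpl and Plin2 did not pass either, with adjusted p between 0.165 and 0.807. Apoc2 and Apoc4 had too few UMIs to test.

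In dendritic cell-like cells, Fabp5 had the highest level of the 10 genes, above its T cell-like levels of 45.3 and 55.5 CPM in mIDH1 and 16.2 and 14.5 CPM in wtIDH1. It was at 781 and 673 CPM in mIDH1, against 276 and 274 CPM in wtIDH1, and the groups did not overlap. Its log2 fold change was 1.62 (SE 0.23), which did not pass (edgeR adjusted p = 0.0557), as was the case for every other gene, with 0% of 8545 genes called. At an unadjusted p of 0.05, 1343 genes passed, and DESeq2 called 177. Fabp5 lay mostly in cluster 23, with markers of mature dendritic cells, at 1838 and 2378 CPM in mIDH1, against 899 and 1143 CPM in wtIDH1. In cluster 16, with markers of type 2 conventional dendritic cells, it was at 25.02 and 101 CPM in mIDH1, against 73.1 and 34.97 CPM in wtIDH1. Cluster 23 made up 71 of 131 and 27 of 85 mIDH1 cells, against 76 of 233 and 69 of 228 wtIDH1 cells.

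The genotype difference was then compared between classes, in 1 model with the library as a block. It was compared for whole classes and not within clusters, and the macrophage-like clusters differed in share between the genotypes. Macrophage-like minus microglia-like differences were negative for Apoe at -2.38 (SE 0.42, edgeR adjusted p = 0.000720), Apoc4 at -3.24 (SE 0.60, adjusted p = 0.00140), Apoc1 at -1.96 (SE 0.41, adjusted p = 0.00554) and Fabp5 at -1.55 (SE 0.39, adjusted p = 0.0419). These 4 genes passed beside 0.719% of all genes, while Spp1 did not (-1.03, adjusted p = 0.385). Members too low to test in either class of a pair were not compared, such as Apoc2 in this pair. Against monocyte-like cells 2 genes passed, Gpnmb at 2.33 and Plin2 at 0.82, beside 2.77% of all genes. Against dendritic cell-like cells 2 genes passed, Fabp5 at -1.09 and Plin2 at 1.01, beside 2.12% of all genes. Of these 8 differences only that of Apoe passed in every fit that left out 1 library. Apoc1 missed without wtIDH1 replicate 2 (adjusted p = 0.452) or mIDH1 replicate 2 (0.104), as did Fabp5 from microglia-like cells (0.301 and 0.988), and Apoc4 without wtIDH1 replicate 2 (0.103) or mIDH1 replicate 1 (0.355). Gpnmb (1.42, adjusted p = 0.0529) and Plin2 (0.307) from monocyte-like cells missed without wtIDH1 replicate 1. From dendritic cell-like cells, Fabp5 (0.112 and 0.0981) and Plin2 (0.239 and 0.226) missed without wtIDH1 replicate 1 and replicate 2. In the sum of all cells of a library, Gpnmb was the only gene of the 10 to pass, beside 13.8% of all genes. It was at 95.003 and 89.6 CPM in mIDH1, against 231 and 217 CPM in wtIDH1 (log2 fold change -1.10, SE 0.17, edgeR adjusted p = 0.0238). That sum mixes cell numbers with level per cell. Neutrophil-like cells made up 32.2% and 51.98% of kept mIDH1 cells, against 3.81% and 6.98% of kept wtIDH1 cells. The part of cell numbers in the Gpnmb difference was not tested.

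Co-expression was read across single cells thinned to 1000 UMIs, within each class and library, for pairs in which both genes were seen in at least 5% of cells. These correlations are descriptive, since cells of a library share its depth and free RNA. Each class also pools clusters that differ in level, such as macrophage-like clusters 2 and 4. Correlations within single clusters were not computed. In macrophage-like cells, Gpnmb and Fabp5 had a mean Pearson r of 0.36 over the 4 libraries (range 0.29 to 0.46), Apoe and Gpnmb 0.31 (0.13 to 0.43), Apoe and Trem2 0.26 (0.17 to 0.39), and Apoe and Fabp5 0.23 (0.12 to 0.30). Apoe and Spp1 were at -0.0037, with 2 of 4 libraries negative, and Apoe and Plin2 at -0.10 (-0.19 to -0.03). Spp1 was positive in 4 of 4 libraries with Fabp5, at 0.15 (0.025 to 0.29), and with Gpnmb, at 0.11 (0.0089 to 0.20), values close to the 0.11 of Trem2 and Fabp5. Of 15 such pairs in macrophage-like cells, 9 were positive in all 4 libraries. The share over pairs of other genes was not computed in any class. Such counts, here and below, therefore do not set these genes apart from others.

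In microglia-like cells Gpnmb and Fabp5 were again correlated, with a mean r of 0.29 (0.28 to 0.30), and Spp1 went with Gpnmb at 0.26 (0.14 to 0.43) and with Fabp5 at 0.25 (0.06 to 0.37). Differences in r between the classes were not tested. Spp1 and Trem2 were weakly negative in 4 of 4 libraries, at -0.07, and Apoe and Apoc1 positive in 4 of 4, at 0.19 (0.11 to 0.26). Of 21 pairs, 5 were positive in all 4 libraries. In monocyte-like cells 3 of 10 pairs were, led by Apoe and Trem2 at 0.13, and no pair of dendritic cell-like cells met the 5% limit. Cells with a UMI of Spp1, Gpnmb and Trem2 together made up 1.66% and 2.54% of mIDH1 macrophage-like cells at 1000 UMIs, against 4.06% and 4.23% of wtIDH1 macrophage-like cells. In microglia-like cells the shares were 4.57% and 4.69% in mIDH1, on 8 and 3 cells, against 0.699% and 1.99% in wtIDH1, on 1 and 3 cells.

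**Figure D5:**
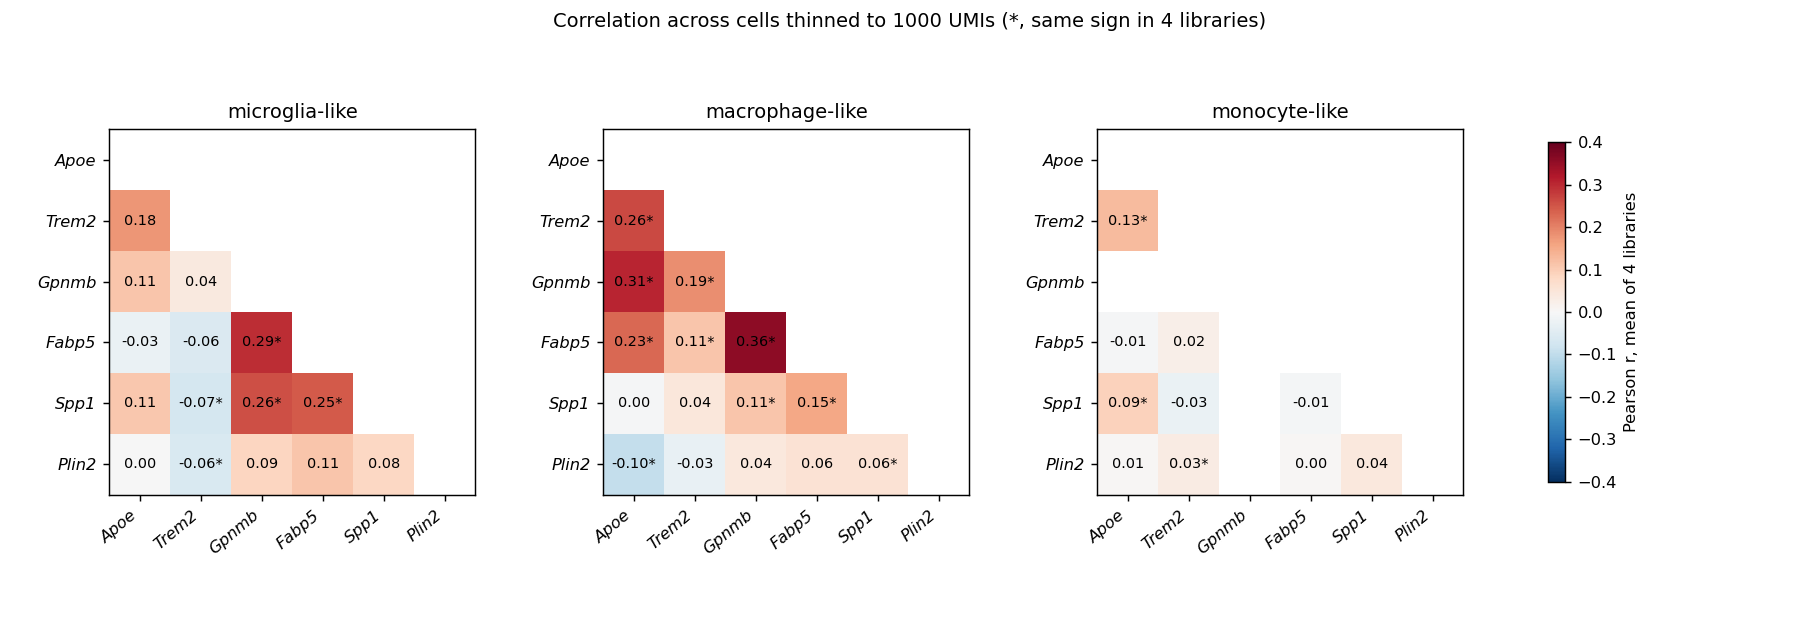
Mean Pearson correlation over 4 libraries between pairs of genes across cells thinned to 1000 UMIs, in microglia-like, macrophage-like and monocyte-like cells. Blank squares are pairs seen in too few cells, and asterisks mark the same sign in 4 libraries. Gpnmb and Fabp5, and Spp1 with each of them, are positive in 4 of 4 libraries in both microglia-like and macrophage-like cells.

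The genes most like each of 3 members in macrophage-like cells were ranked by mean r over the 4 libraries among 5590 genes, and the first 5 that are not themselves among the 10 are named. For Apoe they were Lyz2 (0.53), Ctss (0.52), Ctsd (0.46), C1qa (0.46) and C1qb (0.45), a group of lysosomal and complement genes. For Gpnmb they were the lysosomal genes Ctsd (0.38), Cd63 (0.33), Psap (0.30) and Ctsb (0.27), with Lyz2 at 0.25, while Fabp5 at 0.36 and Apoe at 0.31 stood among them. For Spp1 the values were lower, with Ccl6 (0.24), Arg1 (0.23), Ccl24 (0.21), Ctsl (0.20) and Fn1 (0.20).

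Partners of these genes were read from 8 lists holding 84 genes, and their counts stand beside shares over all genes of 3.13% in microglia-like, 9.76% in macrophage-like, 15% in monocyte-like and 0% in dendritic cell-like cells. Of receptors for apolipoproteins, 0 of 5 tested passed in microglia-like cells, against a list median of 0.02 beside -0.02 for all genes. Not all receptors of this list are described for the other classes. Of those that are, the sorting receptor Sorl1 fell in macrophage-like cells (log2 fold change -0.95), and the scavenger receptor Scarb1 rose in monocyte-like cells (0.89). Of the 8 osteopontin receptors, Cd44 rose in microglia-like (1.49) and macrophage-like cells (0.90), while Itga4 fell in macrophage-like cells (-0.90). In monocyte-like cells Itgb5 (-1.11) and Itga9 (-2.34) fell, 2 of 7 tested.

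Of 8 genes of TREM2 signalling and shedding, the adaptor Tyrobp rose in microglia-like (1.43), macrophage-like (0.87) and monocyte-like cells (1.27). The adaptor Hcst rose in macrophage-like (0.69) and monocyte-like cells (0.82), where Inpp5d, a phosphatase that limits the signal, fell (-0.65), as did the sheddase Adam10 (-0.69). Genes of cholesterol efflux and targets of the LXR receptors differed by class. The phospholipid transfer protein Pltp rose in microglia-like (2.95) and macrophage-like cells (1.72). Mylip, which marks lipoprotein receptors for degradation, fell in macrophage-like cells (-1.38), where 2 of 9 passed. In monocyte-like cells, beside 15% of all genes, 4 of 9 fell, Nr1h3 (-1.33), Abca1 (-1.03), Abcg1 (-0.75) and Mylip (-1.69), and none rose. The median of that list in monocyte-like cells was -0.60, beside -0.03 for all genes.

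Of 10 genes of lipid uptake, the scavenger receptor Olr1 (2.10) and the fatty acid binding protein Fabp4 (2.30) rose in macrophage-like cells. Fabp4 rose (1.52) and Slc27a1 fell (-1.86) in monocyte-like cells, and 0 of 5 tested passed in microglia-like cells. No partner of lipoprotein lipase passed in any class, out of 4 tested in microglia-like, 5 in macrophage-like, 4 in monocyte-like and 4 in dendritic cell-like cells. Of the genes of lysosomal lipid breakdown and droplets, Hilpda and G0s2, inhibitors of the droplet lipase, rose together in 3 classes. They were the 2 that rose of 11 tested in microglia-like, 14 in macrophage-like and 13 in monocyte-like cells. In monocyte-like cells 1 other gene of this list fell. Hilpda was at 3.97 in microglia-like, 2.64 in macrophage-like and 1.86 in monocyte-like cells, and G0s2 at 3.32, 2.77 and 2.19 in the same order. G0s2 was also among the leading genes of 2 neutrophil-like clusters, and the neutrophil marker sums given above were higher in mIDH1 in the same 3 classes.

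Of 20 further genes of disease-associated microglia or lipid-associated macrophages, 2 rose and 1 fell of 17 tested in microglia-like cells, with Igf1 at 1.86, Lgals3 at 1.48 and Itgax at -1.51. In macrophage-like cells 3 rose and 2 fell of 19 tested, including Lgals3 (1.62) and Ctsl (1.04), against Itgax (-1.25) and Axl (-1.49). In monocyte-like cells 3 rose and 4 fell of 17 tested, including Lgals3 (1.29) and Cd52 (1.07), against Axl (-2.24) and Itgax (-1.58). Genes of the list went in both directions within each of these classes, and its median stayed between -0.11 in monocyte-like and 0.32 in macrophage-like cells. In dendritic cell-like cells no gene of any list passed.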

How the data were processed

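Each library was deposited as its own matrix of raw UMI counts. Alignment by STAR to mm10, barcode filtering and UMI counting were done in Cell Ranger 3.1, per the labels' protocols and the submitters' processing notes, though the version written in the matrices is 3.0.0, per the file headers. The labels also describe an aggregation to equal depth. The matrices are separate, and their totals of 29849183 and 20908476 UMIs (mIDH1) and 23695857 and 22908011 UMIs (wtIDH1) differ. The file for each library is its own, so no sample was assigned by column.

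Barcodes with under 200 genes or over 10% mitochondrial UMIs were left out. Scrublet's automatic threshold called too few doublets, so the highest scores, at 0.8% per 1000 barcodes, were removed (142 and 121 in mIDH1, 93 and 90 in wtIDH1). Leiden clustering (resolution 1, seed 0) used 2000 variable genes without the 10 members, 30 principal components and 15 neighbours in scanpy 1.11.5 with leidenalg 0.10.2 and igraph 0.11.9. A cluster was named where at least 3 markers of a class were among its 60 leading genes with no class having more, where markers of other classes did not outnumber its own among the 10 leading genes, and where most cells held at least 2 UMIs of its markers. Ties went to the class of higher mean log2 ratio. Cluster 2 was such a tie, with 3 macrophage and 3 monocyte markers. Unnamed clusters entered no class, among them cluster 3, with 3 monocyte markers among 60 but 2 of other classes among its 10 leading genes, and 51 and 44 mIDH1 and 158 and 214 wtIDH1 cells.

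UMIs were summed per library and class (at least 30 cells in each library) and compared by the quasi-likelihood test of edgeR 4.0.16 under R 4.3.3, after trimmed mean normalization and the tool's default filter on low counts, with Benjamini-Hochberg adjustment over all genes of a class. SE is the log2 fold change over the root of F. Alternatives were DESeq2 1.42.0, library totals, no filter, leaving out each library, a mitochondrial limit of 5%, doublets kept, whole clusters, the marker gate alone, subtraction of free RNA, cells thinned to 1000 UMIs, and a replicate block. Single clusters, shared barcodes, a crossed block and the limit on neutrophil UMIs were added after the data were seen. Shares have exact 95% binomial intervals in the tables, and intervals and limits cover counting error only. The test was tested on simulated data. The code ran under Python 3.11.15 with scikit-learn 1.9.0, scipy 1.17.1, anndata 0.12.19, pandas 2.3.3, matplotlib 3.10.9 and numpy 2.4.6.

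The members and the partner lists were chosen with earlier results of these data known. All 10 members are reported. Named partners are up to 4 genes of lowest p per list and class, and genes alike in pattern are the 5 of highest mean r among genes of at least 20 CPM. Some genes of the lists are not reported here.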

Additional observations from a re-analysis of the deposited data

Results flagged for a closer look

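The size of the genotype effect differed between classes for 8 pairings of gene and class, each by a test of the difference itself with the library as a block (edgeR). For Apoe the log2 fold change of mIDH1 over wtIDH1 in macrophage-like minus microglia-like cells was -2.38 (SE 0.42, adjusted p = 0.000720). Apoc1 differed by -1.96 (adjusted p = 0.00554), Apoc4 by -3.24 (adjusted p = 0.00140) and Fabp5 by -1.55 (adjusted p = 0.0419). All 4 are genes that rose in microglia-like cells of both mIDH1 libraries and did not pass in macrophage-like cells taken as a whole. The macrophage-like sums mix clusters 2 and 4, whose shares differed between the genotypes. Taken alone, Apoc1 rose in cluster 4 and Fabp5 in cluster 2, as given above. These differences were not fitted within clusters.

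In macrophage-like minus monocyte-like cells, Gpnmb differed by 2.33 (SE 0.47, adjusted p = 0.00919) and Plin2 by 0.82 (SE 0.19, adjusted p = 0.0222). Gpnmb fell in monocyte-like cells, on few cells and with only 12 and 9 UMIs in mIDH1, whose distance from free RNA is uncertain. Plin2 rose in macrophage-like cells. In macrophage-like minus dendritic cell-like cells, Fabp5 differed by -1.09 (SE 0.21, adjusted p = 0.00787) and Plin2 by 1.01 (SE 0.24, adjusted p = 0.0293).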

How the results depend on the processing

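With 2 libraries in each genotype, few cells behind the microglia-like sums and 0 to 3 UMIs behind some levels of Apoc2 and Apoc4, small changes could not be seen, and values at the T cell-like level cannot be told from free RNA. The correlations of same-numbered libraries, -0.25, -0.16, 0.02 and 0.10 over the 4 classes, do not pair the replicates. Clusters 11 and 23 were not fitted alone, with under 30 cells in a library. The cause of each change below was not tested. Under cells thinned to 1000 UMIs, genes called numbered 3 (5 before) in microglia-like cells, where Fabp5 did not pass and Apoc4 could not be tested, and 1 (3 before) in monocyte-like cells, where Spp1 did not pass and Gpnmb could not be tested. In macrophage-like cells, with 2 called, DESeq2 and the marker gate alone gave 4, no filter, the replicate block and the crossed block 5, cluster 2 alone 1 and leaving out a library 1 to 3. Cluster 1 alone gave 1 in monocyte-like cells. In dendritic cell-like cells, with 0 called, library totals, DESeq2, the replicate block, the crossed block, doublets kept and the marker gate alone gave 1, less free RNA 2, no filter 3, and leaving out a library 1 to 3. For the difference from microglia-like cells, leaving out a library gave 2 to 4 members, from monocyte-like cells 1 to 3 and from dendritic cell-like cells 0 to 4.

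All genes called moved by over 1.5 times in microglia-like cells (223) under DESeq2 (124), no filter (338), the replicate block (127), the crossed block (839), the marker gate (62), thinning (34), the neutrophil limit (36) and without wtIDH1 replicate 2 (122). In macrophage-like cells (1051) they did under no filter (2212), the blocks (1735 and 2039), thinning (604), clusters 2 and 4 alone (47 and 281) and leaving out a library (303 to 1666). In monocyte-like cells (1316) they did under DESeq2 (770), the marker gate (842), thinning (522), cluster 1 alone (119) and leaving out a library (379 to 2200). In dendritic cell-like cells (0) counts were 26 under library totals, 177 under DESeq2, 390 with no filter, 56 and 230 under the blocks, 20 with doublets kept, 107 by the marker gate, 100 in cluster 16 alone and 42 to 1139 leaving out a library. Differences between classes (75, 296 and 222) gave 534 and 429 with no filter for the last 2, and 42 to 116, 273 to 478 and 98 to 526 leaving out a library.

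Sign changes were of values that did not pass in the reported fit, apart from Plin2 in macrophage-like cells within cluster 4 (-0.0026). In microglia-like cells Gpnmb was -0.46 by the marker gate and Plin2 -0.077 in cluster 7. In macrophage-like cells Lpl was -0.15 by library totals, -0.58 by the gate, -1.15 in cluster 4 and -0.79 to 0.63 leaving out a library. Apoc2 was -0.041 to 0.99 leaving out a library, Apoe was 0.66 by the gate, 0.31 in cluster 2 and 1.47 in cluster 4, and Gpnmb 0.83 in cluster 4. In monocyte-like cells Plin2 was -0.12 by library totals and -0.12 to 0.41 leaving out a library. Trem2 there was -0.35 to 0.14 leaving out a library, 0.53 by the gate, 0.029 under the neutrophil limit and 0.89 in cluster 1, and Apoe 0.20 by the gate and 0.48 in cluster 1. In dendritic cell-like cells Plin2 was 0.11 by the gate and 0.016 in cluster 16, and leaving out a library gave -0.18 to 0.15 for Plin2, -0.22 to 2.10 for Spp1 and -1.87 to 0.0070 for Apoe. For the differences from microglia-like cells it gave -0.40 to 0.10 for Trem2, -0.16 to 0.75 for Plin2 and -0.15 to 2.66 for Lpl. For those from monocyte-like cells it gave -0.15 to 0.66 for Apoe and -0.082 to 1.25 for Apoc1. For those from dendritic cell-like cells it gave -0.016 to 1.92 for Apoe and -0.76 to 1.74 for Spp1, which was 0.54 without wtIDH1 replicate 2, 1.74 without mIDH1 replicate 1 (adjusted p = 0.0105), 0.018 with no filter and 8.69 with less free RNA. Alternative values were tallied with the counts of all genes called among them. A gene's value was unchanged if it kept side and direction, and a count if it moved by no more than 1.5 times. Of 634 such values for genotype effects 502 were unchanged, and of 165 for differences between classes 122 were.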

Other observations

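Clusters that could not be named also held the genes. Cluster 15, led by Rhox5, Krt18, Clu and Cdkn2a, had 122 and 102 cells in the mIDH1 libraries, against 7 and 2 in the wtIDH1 libraries, and its cells were deep, with a median of 38252 UMIs. Spp1 was at 1345 and 1211 CPM there in mIDH1, against 970.1 and 0 CPM in wtIDH1, while Apoe was at 44.6 and 36.4 CPM in mIDH1, against 282 and 0 CPM in wtIDH1. The wtIDH1 values rest on too few cells to compare.

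Cluster 3, led by H2-DMb1, H2-Ab1, Il1r2, Itgax and Mgl2, held Spp1 at 1823 and 906 CPM in mIDH1, against 203 and 641 CPM in wtIDH1, and Apoe at 2915 and 5830 CPM in mIDH1, against 2137 and 2610 CPM in wtIDH1. Cluster 24, led by Marco, Adamdec1 and cell cycle genes such as Birc5 and Top2a, held Spp1 at 3147 and 566 CPM on 28 and 23 mIDH1 cells, against 852 and 1048 CPM on 76 and 115 wtIDH1 cells. Lpl in that cluster was at 162 and 354 CPM in mIDH1, against 138 and 94.0 CPM in wtIDH1.

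Macrophage-like cells held 58.2% and 64.9% of all Apoe UMIs in the mIDH1 libraries, against 70.4% and 77.9% in the wtIDH1 libraries. Microglia-like cells held 31.9% and 14.6% of them in mIDH1, against 3.38% and 5.25% in wtIDH1. Of all Spp1 UMIs, macrophage-like cells held 62.2% and 61.2% in mIDH1, against 71.6% and 73.4% in wtIDH1, and neutrophil-like cells 6.95% and 10.5% in mIDH1, against 0.886% and 1.65% in wtIDH1.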
